A study of Oryza sativa and Arabidopsis thaliana with 16 samples.

Results

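Roots and shoots of wild-type Arabidopsis thaliana seedlings were compared on 8 Affymetrix 1-colour arrays, which are all the Arabidopsis arrays among the 16 of a series on nitrogen responses in rice and Arabidopsis. Members were chosen by their tissue label alone, 4 arrays labelled root and 4 labelled shoot. Each tissue held 2 biological replicates from plants given KCl at 20 mM and 2 from plants given nitrogen, as 20 mM of KNO3 plus 20 mM of NH4NO3. Treatment lasted 2 h, at an age of 13 days. All plants had grown hydroponically at 22 °C and 50 μE per second and square metre in a medium with ammonium succinate at 0.5 mM and sucrose at 3 mM. Nitrogen plants thus differed from KCl plants in chloride and in total salt as well as in nitrogen, and no source used here names the Arabidopsis accession. The protocols in the labels speak of whole seedlings at harvest and extraction, while titles and tissue labels say root or shoot, and the groups follow the tissue labels.

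Shoots of a seedling are mostly green leaf tissue, whose chloroplasts carry photosynthesis. Their photosynthetic complexes are built jointly from proteins encoded in the nucleus and in the plastid's own small genome. Root cells hold plastids with the same genome, but these are typically colourless and not photosynthetic. Roots take up water and ions, form root hairs and build barriers of suberin and lignin, and they secrete many peroxidases and other enzymes into the cell wall.

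Values are log2 expression per probe set (the group of probes that reports 1 gene), computed by RMA (robust multi-array average, a method that subtracts background, brings arrays to a common scale and combines the probes of a set). Differences below are root minus shoot on the log2 scale, averaged over both treatments unless stated, with the standard error (SE) of limma's linear model over all 8 arrays. A probe set was called at a Benjamini-Hochberg adjusted p under 0.05 over the 22746 probe sets tested. Arrays of the same tissue correlated across probe sets at 0.934 to 0.987 in roots (6 pairs) and 0.971 to 0.993 in shoots (6 pairs), and arrays of different tissues at 0.797 to 0.853 (16 pairs). The root KCl arrays were the least alike, with an SD of 0.49 for the difference within the pair against 0.21 to 0.35 in the other groups, and a narrower range (25th to 75th percentile 4.69 to 6.92 and 4.75 to 6.83, against 4.54 to 7.20 in root nitrogen replicate 2). Their part in the results was not tested as a cause, and values from nitrogen plants alone, which do not use them, stand beside named differences that they move most. In bulk tissue, fewer cells of a type and less RNA per cell cannot be told apart.

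Levels on the arrays went with the tissue labels, for lists that were chosen with earlier results of these data known. The mean level of 12 nuclear photosynthesis genes lay between 5.75 and 6.47 on the 4 root arrays and between 10.92 and 11.35 on the 4 shoot arrays. The mean level of 55 class III peroxidases, many of them root enzymes, lay between 6.81 and 7.21 on root arrays and between 5.79 and 5.95 on shoot arrays. Of 5 root hair genes the mean level was 6.01 to 7.38 in roots and 5.41 to 5.61 in shoots. They include AT4G26010 and AT1G30870, which are also among the 55 peroxidases. Of 9 leaf regulators it was 4.84 to 5.23 in roots and 5.22 to 5.33 in shoots, ranges that just overlap. RMA values carry no detection call, so a low level near 4 or 5 does not show that a transcript was absent. Likewise, a small difference at such levels does not show equal expression.

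Many probe sets separated the tissues. Of 22746 probe sets, 8141 were called (35.8%), 4394 higher in roots (19.3%) and 3747 higher in shoots (16.5%). The median difference over all probe sets was 0.07. The root share of calls was larger for dim probe sets and smaller for large differences. Sets with a mean level under 5 gave 852 calls in roots and 228 in shoots, and with such sets left out 50.2% of 7186 calls were in roots. None of these dim sets was called at 4-fold, but so low a mean leaves little room for such a difference. At 4-fold or more (a log2 difference of 2), 1315 were called (5.78%), of which 456 were higher in roots (2.00%) and 859 in shoots (3.78%). At 16-fold or more, 51 were higher in roots and 151 in shoots, and at 32-fold or more 2 and 62. Of the 1315, 1307 had all 4 arrays of one tissue above all 4 of the other. Over all probe sets, the 4 root arrays lay above the 4 shoot arrays in 3725 (16.4%) and below them in 3373 (14.8%).

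Among genes that carry a name in the annotation, the largest difference in the shoot direction was that of a photosynthesis gene. LHCB4.2, a minor antenna protein of photosystem II, read 6.18 and 6.64 in root KCl arrays and 6.42 and 5.84 in root nitrogen arrays, against 12.23 and 12.56 in shoot KCl and 12.29 and 11.77 in shoot nitrogen. All root arrays were far below all shoot arrays, with a difference of -5.94 (SE 0.20, limma adjusted p = 1.83e-06), a 61.4-fold excess in shoots. PRK, phosphoribulokinase of the Calvin cycle, read 4.3 to 5.13 in roots and 10.19 to 11.08 in shoots (-5.76, SE 0.15). HPR, the hydroxypyruvate reductase of photorespiration, read 5.18 to 5.77 and 11.00 to 11.43 (-5.73, SE 0.11). The fitted differences of these enzymes of carbon fixation and of photorespiration were thus about as large as that of the antenna protein. The root mean of PRK was low (4.80, against 6.27 for LHCB4.2), where a larger difference might not show.

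Next in size came small photosystem subunits. PSBY of photosystem II differed by -5.62 (SE 0.11), PSB27, a photosystem II assembly factor, by -5.60 (SE 0.19), PSAE-1 of photosystem I by -5.48 (SE 0.40), PSAN of photosystem I by -5.47 (SE 0.32) and PSBW of photosystem II by -4.94 (SE 0.30). Root KCl replicate 1 and replicate 2 were far apart for PSAE-1 (7.51 and 5.58), PSAN (6.56 and 5.04) and PSBW (7.47 and 5.95), while the shoot arrays read 11.67 to 12.27 for PSAE-1, 11.60 to 11.73 for PSAN and 11.71 to 11.96 for PSBW. PSB27 differed by -6.55 in KCl plants and -4.66 in nitrogen plants. The other named genes among the 12 of largest difference were ALDH11A3, a cytosolic non-phosphorylating glyceraldehyde-3-phosphate dehydrogenase (-5.22, SE 0.13), SWEET11, a sucrose exporter that feeds the phloem (-5.14, SE 0.12), PDF1.4, a plant defensin (-4.92, SE 0.29), and TROL, the thylakoid anchor of ferredoxin-NADP reductase (-4.80, SE 0.16). SWEET11 had the smallest shoot SD of the 12 (0.02, n = 4), at 10.54, 10.51, 10.54 and 10.54 against 5.15 to 5.63 in roots.

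In the root direction the largest named differences came from many classes of protein, with no photosynthesis gene among them. LTI30, a dehydrin known from cold and drought responses, read 11.22, 11.03, 11.99 and 11.58 in roots and 6.70, 6.96, 7.53 and 6.74 in shoots. The difference was 4.48 (SE 0.20, limma adjusted p = 5.33e-06), 22.3-fold. MSRB5, a methionine sulfoxide reductase that repairs oxidised methionine, differed by 4.31 (SE 0.15), and by 3.47 in KCl plants and 5.15 in nitrogen plants. Cell wall proteins followed, with SBT4.12, a subtilisin-like protease, at 4.00 (SE 0.19) and EXLB1, an expansin-like protein, at 3.78 (SE 0.20).

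Of the other 8 named genes, 6 encode enzymes of varied roles. UGT72E2, which glucosylates lignin precursors, read 10.16, 10.11, 9.90 and 9.88 in roots and 6.60, 6.28, 6.03 and 6.43 in shoots, a difference of 3.68 (SE 0.12). FACT, an acyltransferase that makes the alkyl caffeates of root waxes, differed by 3.47 (SE 0.12), and UGT73D1, another glycosyltransferase, by 3.18 (SE 0.11). BGLU15, a beta-glucosidase, differed by 3.54 (SE 0.17) and GSTU22, a tau-class glutathione transferase, by 3.33 (SE 0.30). PMEAMT, a phosphoethanolamine methyltransferase of the phosphocholine pathway, differed by 3.53 (SE 0.19). Its level moved with treatment in both tissues, from 9.75 and 9.81 to 11.47 and 11.07 in roots and from 5.76 and 6.10 to 8.45 and 7.69 in shoots, so the tissue difference was 3.85 in KCl and 3.20 in nitrogen plants. OCT1, an organic cation transporter, was lower with nitrogen in both tissues (9.10 and 10.42 against 7.61 and 6.97 in roots, 5.75 and 5.98 against 4.43 and 4.68 in shoots) and differed by 3.32 (SE 0.30). ATC, a relative of the flowering repressor TFL1, differed by 3.13 (SE 0.25).

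**Figure D1:**
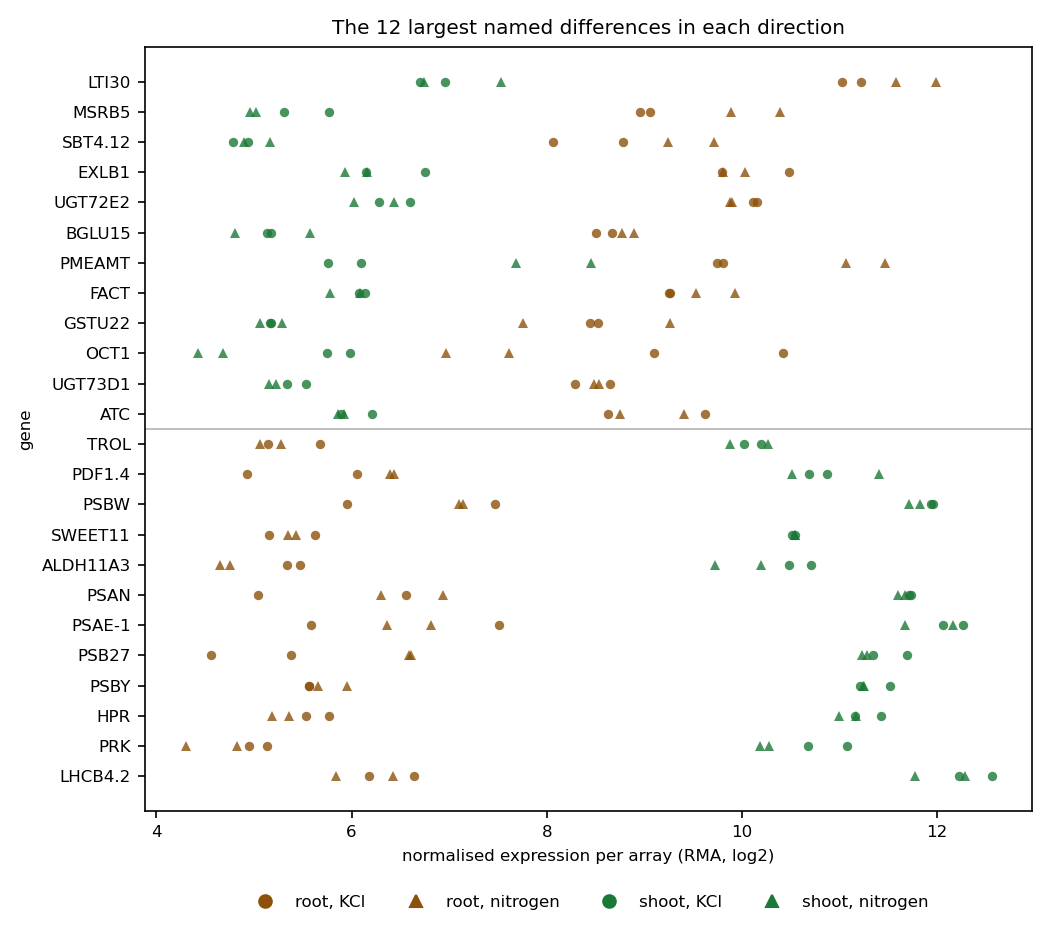
RMA log2 expression on each of the 8 arrays (x axis) for the 12 genes of largest named difference in each direction (y axis), with roots in brown, shoots in green, circles for KCl and triangles for nitrogen plants. Genes were admitted only if called and without overlap between tissues, so the gap between root and shoot points was a condition of entry. LHCB4.2 read 5.84 to 6.64 in roots and 11.77 to 12.56 in shoots. PMEAMT and OCT1 spread by treatment within each tissue.

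Genes that the annotation gives by locus code alone reached further. AT3G05730 had the largest fitted difference of the 22746 probe sets in either direction. It read 4.2 to 4.66 in roots and 11.27 to 11.80 in shoots, a difference of -7.23 (SE 0.14, limma adjusted p = 7.5e-07). Its root mean of 4.38 lay below the 25th percentile of every array (4.53 to 4.75), where a level above background is not shown, so no fold is given. AT1G23130 (-6.34), AT3G16670 (-5.71), AT2G26500 (-5.69), AT4G16980 (-5.63) and AT4G12490 (-5.61) followed. On the root side AT3G01190, which belongs to the class III peroxidases, read 10.71, 10.17, 10.49 and 10.07 in roots and 5.15, 4.93, 4.84 and 4.75 in shoots, and its difference of 5.44 (SE 0.16, 43.5-fold) was the largest in that direction. AT5G01870 (4.85), AT5G43520 (4.79), AT1G64590 (4.79), AT5G38910 (4.78) and AT2G21045 (4.62) came next. AT5G38910 differed by 3.79 in KCl and 5.77 in nitrogen plants.

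Nuclear genes of the photosynthetic machinery were higher in shoots for every member measured in 5 lists, which the annotation names only in part. In these lists (photosystem I, photosystem II, light-harvesting proteins, ATP synthase and electron transport, Calvin cycle), 12 genes were named by the annotation. All 12 were called higher in shoots, against 16.5% of all probe sets. Their median difference was -5.21, against 0.07 over all probe sets, and it was -5.43 in KCl and -4.84 in nitrogen plants. RCA, the activase of Rubisco, differed by -4.62 and SBPASE, a Calvin cycle phosphatase, by -4.55. Within the LHCB4 genes the difference was -5.94 for LHCB4.2, -4.65 for LHCB4.1 and -1.75 (SE 0.12) for LHCB4.3, whose shoot arrays read 6.75 to 7.09. ATPC1, the gamma subunit of the chloroplast ATP synthase, differed by -4.74 (SE 0.14). Its paralog ATPC2, which is not among the 12, read 5.25 to 5.64 in roots and 5.59 to 5.99 in shoots. It was not called (-0.18, SE 0.13, limma adjusted p = 0.327).

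Pigment synthesis genes were also higher in shoots. All 8 genes of chlorophyll and carotenoid synthesis were called higher in shoots (median -2.20), against 16.5% of all probe sets. The largest were AT1G74470, placed in the list by its locus code (-4.80), the protochlorophyllide reductase PORB (-3.76, SE 0.29) and the methyltransferase CHLM (-3.67, and -2.65 in nitrogen plants), both on the chlorophyll branch. Genes of earlier steps, which haem synthesis shares, had smaller differences, with HEME1 at -2.30, HEMB1 at -2.11, HEME2 at -1.54 and GSA1 at -0.82. A wider list of 14 tetrapyrrole genes found by symbol held 10 called higher in shoots (71.4%), led by the light-harvesting-like proteins LIL3:2 (-4.24) and LIL3:1 (-4.05). HEMA3 (-0.04) and hemf2 (0.02) gave nearly the same values in both tissues. Their levels were low (root means 4.08 and 4.63), where a difference might not show. In photorespiration AT1G32470 (-4.51) and AT1G11860 (-2.08) were higher in shoots. AT1G80380 read 8.1 and 7.38 in root KCl, 10.86 and 10.98 in root nitrogen and 9.11 to 9.58 in shoots. It was thus lower in roots of KCl plants (-1.42, SE 0.26, limma adjusted p = 0.006) and higher in roots of nitrogen plants (1.56, SE 0.26, limma adjusted p = 0.00462), and these opposite differences cancel in its mean of 0.07, which was not called.

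Chloroplast-encoded genes followed the nuclear ones with smaller differences. The array held 69 genes of the plastid genome that the annotation names, with a median of -2.33. Of them, 65 were called higher in shoots (94.2%, against 16.5% of all probe sets). The other 4, ndhF (-0.55), rpl14 (-1.30), rpl16 (-1.09) and rps15 (-0.72), were also lower in roots on average. For those of the photosynthetic complexes, 42 of 43 were called and the median was -2.97. All 5 genes of photosystem I, 15 of photosystem II, 6 of the cytochrome b6f complex and 7 of the ATP synthase and Rubisco were called, and 9 of 10 of the NDH complex, which cycles electrons around photosystem I. The 19 genes of plastid transcription and translation had a median of -1.30, with 16 called, and 10 in nitrogen plants when both root KCl arrays were left out. The remaining 7 plastid genes, all called, ranged from ycf4, a photosystem I assembly factor (-2.80), to clpP, a protease subunit (-0.73).

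Single plastid genes differed widely. psbA, for the D1 protein of photosystem II, read 6.91, 7.01, 6.36 and 7.18 in roots and 11.92, 11.35, 10.91 and 11.39 in shoots, a difference of -4.53 (SE 0.22, limma adjusted p = 9.08e-06). psaA, for a core protein of photosystem I, differed by -4.42 (SE 0.44), and by -3.76 in nitrogen plants, with root arrays from 5.93 to 8.55. rbcL, for the large subunit of Rubisco, differed by -2.03 (SE 0.15). psbM, a small photosystem II subunit, read 10.75 to 11.75 in roots and 12.72 to 13.46 in shoots (-1.76, SE 0.26). Genes that are transcribed together in chloroplasts, psbB, psbT, psbH, petB and petD, gave differences of -4.17, -4.42, -3.05, -1.67 and -0.74, each called and each with no overlap between tissues. Their levels were unlike. petD read low, at 4.79 to 5.15 in roots and 5.31 to 6.12 in shoots. petB read high, at 10.69 to 11.30 in roots and 12.52 to 12.84 in shoots. The sizes of their differences may thus not be comparable.

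Mitochondrion-encoded genes showed no such pattern. None of 16 was called with limma, against 35.8% of all probe sets (1 had an unadjusted p under 0.05). Their median was -0.04, and they ranged from nad1 at -0.29 (SE 0.11) to nad6 at 0.53 (SE 0.33). Their median level was 5.41 in roots and 5.49 in shoots. The closest to 0 were nad4L (0.01) and nad7 (0.02), subunits of respiratory complex I. With 1 array left out at a time, up to 2 were called in roots (without root KCl replicate 2) and up to 2 in shoots (without root nitrogen replicate 2). The mean level of both organelle sets was highest on replicate 2 of the nitrogen arrays. For plastid genes it was 8.20 in root nitrogen replicate 2 against 7.35 to 7.86 on the other root arrays, and for mitochondrial genes 6.27 against 5.64 to 5.77. In shoots it was 10.41 against 9.79 to 10.37 and 6.03 against 5.68 to 5.87.

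**Figure D2:**
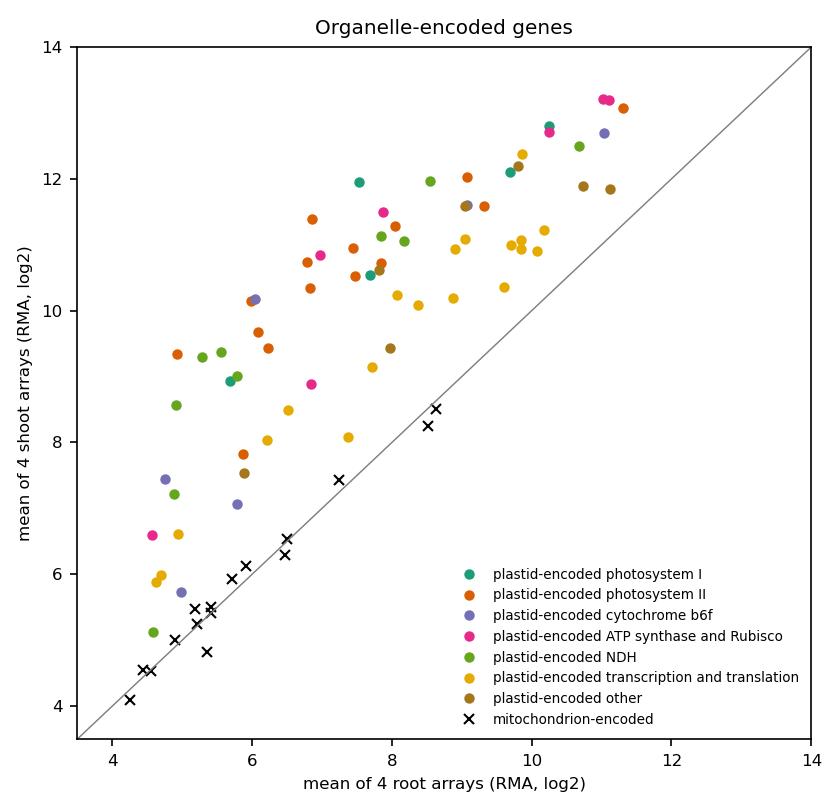
Mean RMA log2 expression over the 4 shoot arrays (y axis) against the 4 root arrays (x axis) for 69 plastid-encoded genes (coloured by complex) and 16 mitochondrion-encoded genes (crosses), with the line of equal values. Plastid genes lie above the line, by 0.55 for ndhF to 4.53 for psbA, and mitochondrial genes lie along it.

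Nuclear factors that build the plastid complexes differed in size. Of 5 photosystem II assembly genes all were called higher in shoots, with PSB27 at -5.60, LPA1 at -2.02, LPA2 at -1.68, LPA19 at -0.94 and PAM68 at -0.91 (PAM68 was not called in nitrogen plants without the root KCl arrays). The nuclear NDH subunits NdhS (-3.97), NdhL (-2.72) and NdhN (-1.10) were all called. Of 10 proteins that edit or process chloroplast RNA, 4 were called higher in shoots (40%, against 16.5% of all probe sets). Each of these differed by less than 1 on the log2 scale, among them LPA66 (-0.66) and CRR21 (-0.65). The median of the 10 was -0.31. Their median levels were low (4.73 in roots and 4.89 in shoots), where a difference might not show.

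Class III peroxidases, secreted haem enzymes that act on phenolic compounds in the cell wall, were called more often in roots than in shoots. Of 55 measured from a hand-written list of locus codes, 29 were called higher in roots (52.7%, against 19.3% of all probe sets). In shoots 5 were called higher (9.09%, against 16.5%), and 21 were not called. The median was 0.47. At 4-fold or more there were 18 in roots and 3 in shoots, where the shares of all probe sets were 2.00% and 3.78%. With any 1 array left out, 25 to 32 were called in roots and 4 or 5 in shoots. After AT3G01190 (5.44) came AT3G21770 (4.27), AT5G19890 (4.21, and 4.80 in nitrogen plants) and AT4G08780 (4.08). The shoot-directed members were AT5G64120 (-2.65, SE 0.24), AT5G64110 (-2.31), AT3G28200 (-2.31), AT1G71695 (-1.17) and AT5G58390 (-0.53), whose call was lost without any 1 of 6 arrays (all but root KCl replicate 2 and shoot nitrogen replicate 2). AT5G64120 read 9.40 to 10.95 in roots and 12.49 to 12.90 in shoots. AT1G24110 (0.00 after rounding) and AT1G77100 (-0.04) had the smallest differences.

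Root hair and root development genes pointed to roots where they were called. Of 5 root hair genes, the peroxidases AT4G26010 and AT1G30870 were called with clear gaps. AT4G26010 read 8.57, 7.56, 7.45 and 6.04 in roots and 4.59 to 4.92 in shoots (2.64, SE 0.35, and 1.98 in nitrogen plants), and AT1G30870 differed by 1.76 (SE 0.23). SCN1, a regulator of hair position, was called at 0.46, a call lost in turn without each of 7 of the 8 arrays (all but root nitrogen replicate 2). The hair expansins EXPA7 (0.69, SE 0.29, adjusted p = 0.109) and EXPA18 (0.53, SE 0.18, adjusted p = 0.0554) were not called. All 5 genes read highest on root KCl replicate 1, and all but EXPA7 had their lowest root value on root nitrogen replicate 2.

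Among 8 root regulators, 5 were called higher in roots (62.5%, against 19.3% of all probe sets). UPB1, which sets the balance of reactive oxygen at the root tip, read 6.37 to 7.13 in roots and 4.48 to 4.97 in shoots (2.15, SE 0.16). LHW, a regulator of root vascular tissue, differed by 1.15, PUCHI, an early lateral root factor, by 0.84, LBD16 of lateral root initiation by 0.81 and JKD of root radial patterning by 0.69. PUCHI was not called in nitrogen plants without the root KCl arrays. LBD29 (0.30), BBM (0.16) and CLE40 (0.10) were not called. The root means of LBD29 and BBM were low (4.78 and 4.80), where a difference might not show. GSO1, the receptor kinase needed for an intact Casparian strip, read 7.13 to 7.77 in roots and 4.93 to 5.26 in shoots (2.34, SE 0.11).

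Leaf and stomatal regulators showed smaller differences. STOMAGEN, a secreted peptide that promotes stomata, differed by -1.59 (SE 0.11) and SPCH, which starts the stomatal lineage, by -0.95 (-1.54 in nitrogen plants), while MUTE was not called (-0.07). Of 9 leaf regulators, 2 were called in shoots (22.2%, against 16.5% of all probe sets). YAB3, which specifies the lower leaf side, was called at -0.96 (SE 0.10). NGA1 was called at -0.29, a call lost without any 1 of the 6 arrays other than the root KCl pair. With root KCl replicate 1 left out 4 of the 9 were called in shoots, with root KCl replicate 2 left out 6, and with any other array left out 1. The shoot apex peptide CLV3 (0.14) and the leaf margin factor JAG (0.00) were not called. Levels of MUTE, CLV3 and JAG were low (root means 4.67, 4.83 and 4.40), where a difference might not show. In a separate set of 5 leaf and shoot apex genes, which shares members with the 9, 1 was called, YAB3, and without root KCl replicate 2 there were 3.

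**Figure D3:**
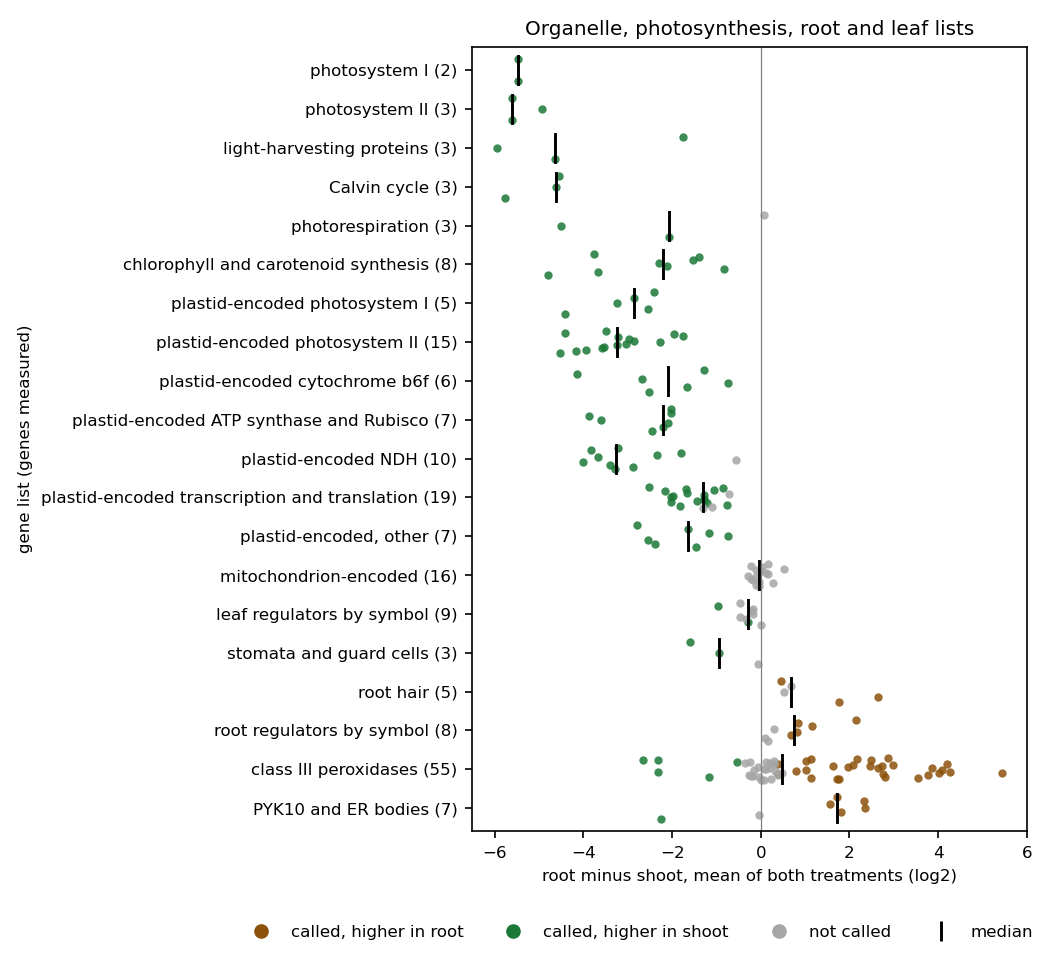
Root minus shoot difference (x axis, log2, mean of both treatments) of each gene in 20 lists (y axis, genes measured in parentheses), in brown where called higher in roots, green where called higher in shoots and grey where not called, with the list median as a black bar. Photosynthesis lists lie left of 0, with medians down to -5.60 for photosystem II, mitochondrial genes lie around 0, and class III peroxidases reach from -2.65 to 5.44.

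Endoplasmic reticulum bodies, stores of beta-glucosidase for defence that occur in the roots of Arabidopsis, were represented by 7 genes, most of them higher in roots. Of these, 5 were called higher in roots (71.4%, against 19.3% of all probe sets) and 1 in shoots (14.3%, against 16.5%), with a median of 1.71. PYK10, the main root beta-glucosidase of these bodies, read 12.56, 12.31, 12.66 and 12.63 in roots and 11.20, 11.01, 11.18 and 9.93 in shoots (1.71, SE 0.25). Shoot nitrogen replicate 2 was the lowest shoot array for PYK10 and also for NAI2, an organiser of the bodies (7.48 against 7.91 to 8.53 on the other shoot arrays, and 9.64 to 10.98 in roots). NAI2 differed by 2.32 (SE 0.25) and its transcriptional regulator NAI1 by 1.57 (SE 0.24, and 2.24 in nitrogen plants). The jacalin-related lectins JAL34 (2.36) and JAL33 (1.8) were higher in roots, JAL22 was higher in shoots (-2.24, SE 0.15), and JAL23 was not called (-0.04).

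Several enzyme families had members called on either side, some of them close relatives. Of 47 UGT glycosyltransferases, which attach sugars to small molecules, 11 were called higher in roots (23.4%, against 19.3% of all probe sets) and 18 in shoots (38.3%, against 16.5%), and the median was -0.18. The share in roots was near that of all probe sets. UGT72E2 stood at 3.68 and UGT72E1, which acts on related lignin precursors, at -2.62 (SE 0.29), with 7.93 to 9.32 in roots and 10.68 to 11.44 in shoots. UGT72E3 was called at 0.35, a call lost without any 1 of 6 arrays (all but root KCl replicate 1 and root nitrogen replicate 1). UGT71C1 (2.37) and UGT76D1 (1.72) were higher in roots, and UGT88A1 (-3.76, and -2.93 in nitrogen plants), UGT71B1 (-1.87) and UGT84A3 (-1.75) in shoots. Without both root KCl arrays, 9 were called in roots and 11 in shoots, and without shoot KCl replicate 1 the count in roots was 7.

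Of 21 beta-glucosidases, 5 were called in roots (23.8%) and 3 in shoots (14.3%), shares near the 19.3% and 16.5% of all probe sets. BGLU15 (3.54) and BGLU46 (3.09) led in roots, and BGLU44 read 4.57 to 5.75 in roots and 8.86 to 9.38 in shoots (-4.08, SE 0.25). Without root KCl replicate 2, 8 were called in roots. Of 11 tau-class glutathione transferases, which conjugate glutathione to reactive compounds, 5 were higher in roots (45.5%), led by GSTU22 (3.33) and GSTU26 (1.59), and 3 in shoots (27.3%), led by GSTU16 (-2.98) and GSTU18 (-2.56). Of 19 CYP71B cytochromes P450, 7 were called in shoots (36.8%) and 2 in roots (10.5%, and 1 gene in nitrogen plants without the root KCl arrays), and CYP71B24 read 4.77 to 5.27 in roots and 8.80 to 9.34 in shoots (-4.09, SE 0.17). Serine carboxypeptidase-like genes gave 9 calls in roots (31%) and 6 in shoots (20.7%) of 29, the latter near the share of all probe sets. They ranged from scpl31 (2.16, with 0.37 in KCl and 3.95 in nitrogen plants) to scpl25 (-1.35).

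Of 14 sugar transporters of the SWEET family, which let sugars pass membranes down their gradient, 3 were called in shoots (21.4%) and 2 in roots (14.3%), shares near those of all probe sets. SWEET1 read 5.07 to 5.98 in roots and 8.30 to 9.45 in shoots (-3.52, SE 0.19, and -2.85 in nitrogen plants), second to SWEET11 (-5.14). SWEET17, a fructose transporter of the vacuole, read 7.31, 6.79, 8.11 and 7.86 in roots and 5.32, 4.88, 6.12 and 5.99 in shoots (1.94, SE 0.16), and SWEET16, also vacuolar, differed by 1.16 (2.07 in nitrogen plants). Both CHX cation exchangers that were called, CHX20 (-2.29, SE 0.22), known from guard cells, and CHX16 (-2.03), were higher in shoots, and the other 5 lay between -0.13 and 0.13.

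Cell wall families had called members on both sides. Of 18 expansins, which loosen the wall, 7 were called in roots (38.9%, against 19.3% of all probe sets) and 1 in shoots (5.56%, against 16.5%). EXLB1 (3.78) and EXPA4 (2.59) led, the shoot member EXLA2 (-0.37) lost its call without any 1 of 7 arrays (all but shoot nitrogen replicate 2), and 4 were called in roots without both root KCl arrays. Of 10 xyloglucan-modifying XTH enzymes, 2 were called in roots (20%) and 3 in shoots (30%). XTH20 (2.02) was higher in roots, and XTH32 (-2.86), XTH16 (-2.08) and EXGT-A3 (-1.99) in shoots, while XTH19 (0.58) lost its call without any 1 of 6 arrays (all but root KCl replicate 2 and shoot nitrogen replicate 1). Of 15 GH9 cellulases, 3 were called in roots (20%, near the 19.3% of all probe sets) and 1 in shoots (6.67%). GH9B13 (1.64) and GH9C1 (0.91) led in roots, and 5 were called there without root KCl replicate 1. GH9B8 (0.63, in roots) and GH9B18 (-0.42, in shoots) lost their calls without root nitrogen replicate 1, either shoot KCl array or shoot nitrogen replicate 2, and GH9B8 also without root KCl replicate 2. TBL genes, which include wall polysaccharide acetyltransferases, were called in 7 cases in roots (31.8%), led by TBL36 (2.25) and TBL39 (1.90), and in 5 in shoots (22.7%), led by TBL37 (-2.01) and TBL25 (-1.51), of 22.

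**Figure D4:**
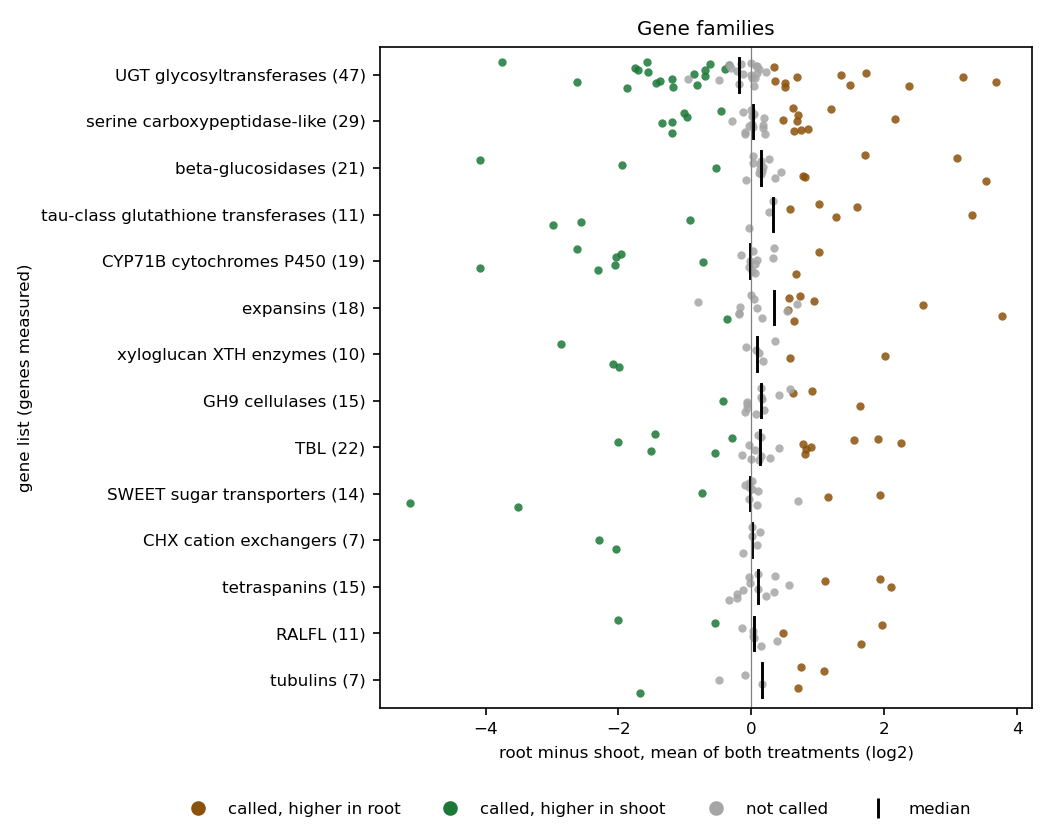
Root minus shoot difference (x axis, log2, mean of both treatments) of each member of 14 gene families (y axis, genes measured in parentheses), coloured as called higher in roots (brown), called higher in shoots (green) or not called (grey), with the family median as a black bar. Most medians are near 0 while members spread to both sides, as for SWEET transporters (-5.14 to 1.94) and UGT glycosyltransferases (-3.76 to 3.68).

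In 3 membrane and signalling families the shares called in roots were 20% (tetraspanins), 27.3% (RALFL peptides) and 12.5% (auxin genes), against 19.3% of all probe sets. The tetraspanins TET2 (2.1, SE 0.17), TET6 (1.93) and TET5 (1.11, and 1.75 in nitrogen plants), membrane proteins, were called in roots, the other 12 were not, and 5 were called without either root KCl array, with 1 in shoots without root KCl replicate 2 or shoot nitrogen replicate 1. Of 11 RALFL peptides, extracellular growth signals, 3 were called in roots and 2 in shoots (18.2%, near the 16.5% of all probe sets). They ranged from RALFL32 (1.97, SE 0.12) and RALFL22 (1.65) in roots to RALFL34 in shoots (-2.0, SE 0.40), whose root KCl arrays read 5.81 and 7.63. GH3.17, which conjugates auxin to an amino acid, led the auxin genes at 2.32 (SE 0.20), with 2 of 16 called in roots and 3 in shoots (18.8%). Without root KCl replicate 1 or 2, 4 or 5 of them were called in roots, and without shoot KCl replicate 1 the count in shoots was 1.

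Nutrient genes were measured only in part. AT3G13610, listed by locus code among iron acquisition genes, read 11.07, 10.90, 10.75 and 10.37 in roots and 7.14, 7.28, 5.48 and 5.41 in shoots (4.44, SE 0.11), with 3.77 between the KCl means and 5.12 between the nitrogen means. The iron regulators PYE (0.16) and BHLH101 (-0.03) were not called, and bHLH115 was higher in roots (1.24). The nitrate transporter gene NRT2.5, induced by nitrogen starvation, read 5.14, 5.63, 5.17 and 5.11 in roots and 7.36, 7.26, 6.16 and 6.90 in shoots (-1.66, SE 0.19), and AT2G26690, in the same list, differed by -1.07. The glucosinolate genes BCAT4 (2.23), an early enzyme of the methionine-derived branch, and the importer GTR1 (-1.67) lay on opposite sides. Reference genes differed little, with GAPC2 at 0.30 (SE 0.09) and AT4G34270 at 0.20. GAPC2 was called, and leaving out 1 array at a time ended that call in 6 of 8 cases (both root nitrogen, both shoot KCl and both shoot nitrogen arrays).

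Other lists held few called genes or small differences. Of 7 tubulins, TUB7 (1.1), TUB9 (0.75) and TUA6 (0.70) were called in roots and TUA1 in shoots (-1.67). These are 42.9% in roots (against 19.3% of all probe sets) and 14.3% in shoots (against 16.5%). The call for TUA6 was lost without root nitrogen replicate 1, shoot KCl replicate 1 or shoot nitrogen replicate 2, and in nitrogen plants without the root KCl arrays 1 tubulin was called in roots. Flavonoid glycosyltransferase UGT78D1 was higher in shoots (-1.71), DFR of anthocyanin synthesis was not called (0.14), and AT1G06000, in the same list, was higher in roots (1.56) but not called in nitrogen plants without the root KCl arrays. HCT of lignin synthesis gave nearly equal values (0.08). The clock gene GI was higher in roots (0.83), as were the mitotic kinases AUR1 (0.80) and AUR2 (0.66, a call lost without root KCl replicate 1, root nitrogen replicate 1, either shoot KCl array or shoot nitrogen replicate 2). The cytokinin response regulator RR16 was higher in shoots (-0.99), as was the light regulator HYH (-1.18), though the call for HYH was lost without root nitrogen replicate 2 or any 1 of the 4 shoot arrays. Of 16 LSM and nuclear RNA polymerase genes, 6 were called in roots (37.5%), none by more than 0.83. With 1 array left out, 2 to 5 were called there (2 without root nitrogen replicate 1, 3 without root nitrogen replicate 2 or shoot KCl replicate 1). Of 10 genes of succinate dehydrogenase, isocitrate dehydrogenase and cytochrome c, 2 were called in roots (20%), a share near that of all probe sets. SDH1-1 (0.80) led, and 5 were called there without root KCl replicate 1. Of 7 exocyst genes, SEC5B was called in roots (0.64), which is 14.3% of the list. SEC10 (-0.69) and SEC6 (-0.48) were called in shoots (28.6%), and neither was called in nitrogen plants without the root KCl arrays. SEC6 lost its call without any 1 array other than the root KCl pair.

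Tissue differences in KCl and in nitrogen plants, as log2 values, rest on separate arrays. Their standard errors, adjusted p values and calls do not, because the same model gave both with a variance shared by all arrays. The counts called below and the overlap of the lists are thus not independent between treatments. In KCl plants 7108 probe sets were called (31.2%) and 1441 of them at 4-fold or more (6.34%). In nitrogen plants the counts were 5297 (23.3%) and 1338 (5.88%). Of the 4-fold sets, 1031 were 4-fold in both and in the same direction, which is 71.5% of the KCl list and 77.1% of the nitrogen list, and 0 were 4-fold in opposite directions. Across all probe sets the differences correlated at 0.851, with genes not being independent replicates. Root-higher sets made up 29.8% of the 4-fold list in KCl and 40.9% in nitrogen plants. The root KCl arrays also had the narrower range, and treatment and array range cannot be told apart here. A test of the change itself, the tissue by treatment interaction, called 110 probe sets (0.484%), against 4305 (18.9%) at an unadjusted p under 0.05. That count was 0 to 3178 with 1 array left out, being 3178 without root KCl replicate 1, 1469 without root KCl replicate 2, 5 without shoot nitrogen replicate 2 and 0 without either root nitrogen or either shoot KCl array. With the replicate number as a block limma called 0, with 3835 at an unadjusted p under 0.05. Of the 110, 97 were also called between tissues, and 15 were called there at 4-fold or more.

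**Figure D5:**
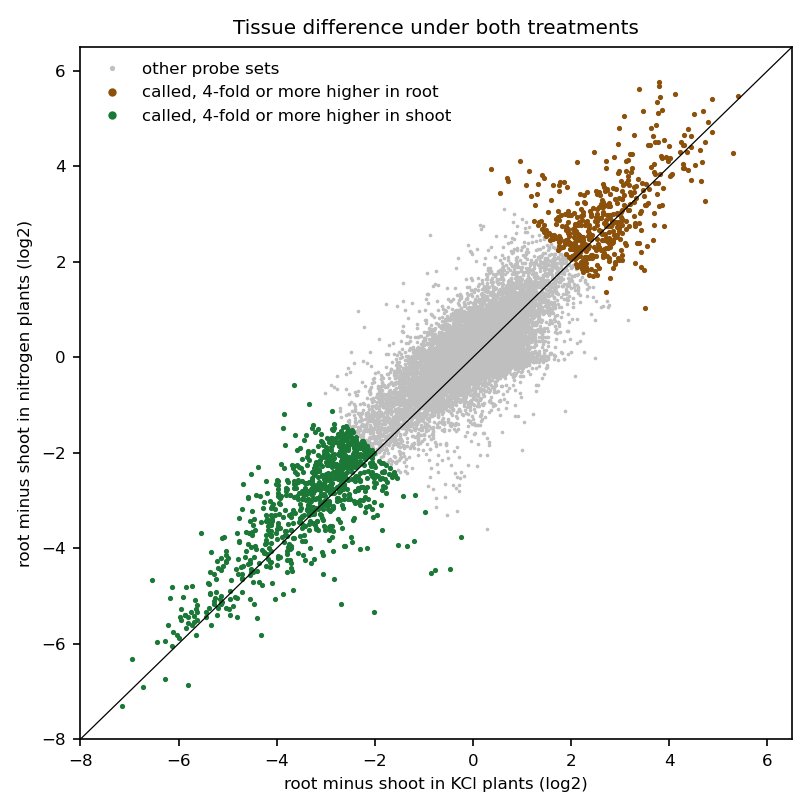
Root minus shoot difference per probe set in nitrogen plants (y axis, log2) against KCl plants (x axis, log2), with 22746 probe sets as points, those called at 4-fold or more on average in brown (456 higher in roots) or green (859 higher in shoots), and the line of equal values. Points were coloured by the mean of the 2 plotted differences, so their place in the lower left and upper right follows largely from that choice. None of the differences that were 4-fold under each treatment by itself has opposite signs.

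Shares of called genes were alike on the 5 chromosomes, as the locus codes give them. Of genes given by locus code, 16.1% to 18.8% were called higher in roots and 10.8% to 14.2% in shoots on each chromosome, with 17.4% and 13.1% in all. Among 5049 pairs of consecutive codes measured (numbers that differ by 10), 20 had both genes past 4-fold. In 5 pairs both were higher in roots, in 11 both in shoots and in 4 they were opposite. The 4 opposite pairs are named here after their values were seen. AT2G43610 differed by 4.38 (SE 0.27) and its neighbour AT2G43620 by -5.46 (SE 0.32). AT1G74460 differed by 3.26 and AT1G74470, the chlorophyll gene above, by -4.80. AT2G05530 stood at 3.74 against -3.99 for AT2G05540, and AT1G22440 at 3.72 against -3.23 for AT1G22430. The peroxidases AT5G64110 (-2.31) and AT5G64120 (-2.65) were a pair higher in shoots, while AT5G64100 beside them was higher in roots (1.03).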

How the data were processed

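The deposited values are log2 expression per probe set, made with RMA per the submitters' processing notes. No source used here gives its version or says whether arrays were normalised jointly. They were used without further scaling. Control probe sets (64 of 22810) were left out. Names came from the platform annotation, which gave 1 gene for 13513 of the 22746 sets tested (1580 with a name, 11933 by locus code), several for 503 and none in that table for 8730. Where a gene had several sets, the one with the highest mean stood for it.

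The linear model of limma 3.58.1 (R 4.3.3) had 4 group means over 8 arrays (residual degrees of freedom 4), with variances moderated by eBayes. P values are two-sided and Benjamini-Hochberg adjusted over all sets. On simulated data the step was checked against known differences before use. The number of arrays limits the precision, and p values set each difference against the moderated spread between arrays within the 4 groups.

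Named genes are the 12 of largest difference in each direction that have a name and the 6 with a locus code alone, called and without overlap between tissues. From each list came up to 4 called members per direction and the 2 nearest 0. ATPC2 and the neighbouring pairs were added after values were seen. The lists and members were chosen with earlier results of these data known, and 37 family lists were assembled from the symbols in the annotation. Of the other 36 lists, 9 had no member named there and are not analysed here, among them ferredoxins, aquaporins and nitrogen assimilation enzymes. Promoter and protein sequences were not used here. Alternatives were other scalings, a filter on dim sets, array weights, unmoderated variances, an additive model, a replicate block, leaving out each array and, chosen after seeing the data, leaving out both root KCl arrays.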

Additional observations from a re-analysis of the deposited data

Results flagged for a closer look

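The tissue difference itself differed between treatments, by the interaction test of limma with adjustment over all probe sets, for 52 probe sets with 1 gene that were also called between tissues. Of these, 8 carry a name and 1 more belongs to a gene list. Values are the tissue difference in nitrogen plants minus that in KCl plants, each with 2 arrays per group, and calls in this test depend on single arrays. None of these calls held with the replicate number as a block, or without either root nitrogen or either shoot KCl array, where limma called 0 probe sets (2547 to 3835 at an unadjusted p under 0.05). The change was 3.57 for scpl31, 3.07 for GAT1_2.1, 1.89 for SAMTL, 1.32 for HON4 and 1.2 for ARLA1A. It was -1.99 for SUFE2, -1.30 for EC1.2 and -1.28 for CYP71B16. For AT5G47980, listed by locus code among root triterpene genes, it was 1.81. scpl31 read 5.08 and 4.75 in root KCl, 8.70 and 8.54 in root nitrogen and 4.42 to 4.78 in shoots, so its excess in roots rested on the nitrogen arrays. SUFE2 read 8.87 and 8.70 in root KCl, 6.33 and 6.37 in root nitrogen and 7.03 to 7.57 in shoots, and its tissue difference had opposite signs, 1.29 and -0.71. AT1G80380 of the photorespiration list, not called between tissues on average, also differed between treatments, by 2.99 (SE 0.36, adjusted p = 0.0388), with tissue differences of -1.42 in KCl and 1.56 in nitrogen plants, and its call was lost in the same alternatives and in others.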

How the results depend on the processing

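The count called between tissues stayed within 1.5 times of 8141 in every alternative run, from 6084 to 10174 with 1 array left out, and so did the count at 4-fold (1301 to 1341) and that of list members (82 of 121, 72 to 85). In KCl plants (7108) it was 4722 with array weights and 3690 to 9078 with 1 array left out, in nitrogen plants (5297) 3212 without moderated variances and 3347 to 6588. The interaction (110) gave 27 with array weights, 42 with arrays centred on their medians, 34 without moderated variances, 24 with quantile normalization, 0 with the replicate block and 0 to 3178 with 1 array left out. For the other counts the block changed no result by over 1.5 times (7598 between tissues). Differences between replicates correlated from -0.425 (root nitrogen with shoot KCl) to 0.391 (root nitrogen with shoot nitrogen) between groups. Between root KCl and shoot KCl the value was 0.005. These values do not settle whether replicate numbers pair root and shoot arrays, and the main model takes no pairing. Of 236 named genes called, 187 were called in every alternative that tested them, 49 were lost in at least 1, and 1 changed sign, SEC6, at 0.03 without both root KCl arrays. The causes were not tested.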

Other observations

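Probe sets without a gene in the annotation also differed between tissues. Of 8730, 1873 were called higher in roots and 1791 in shoots (42.0%), 201 and 447 of them at 4-fold or more, with extremes of 4.81 and -6.81, against 5.44 and -7.23 for sets with 1 gene. Sets with a named gene were called in 42.3% of cases and sets with a locus code alone in 30.4%.

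The share called rose with the mean level, from 13.0% of 8334 sets with a mean under 5 to 61.8% of 1338 sets with a mean of 9 or more. Below 5, 852 sets were called in roots and 228 in shoots, and the root KCl arrays had the highest 25th percentiles (4.69 and 4.75). None of these sets was called at 4-fold, for which a mean under 5 leaves little room.

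For 152 genes with 2 or more probe sets, all sets were called the same way in 18, some were called in 34, none in 97, and 3 were called both ways. Of these 3, AT2G32560 (0.33 and -0.36) is named, after its values were seen. Another is a symbol, SPP (0.53 and -1.03), whose sets may belong to different genes.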
